A study of Mus musculus with 4 samples.

Results

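Perineuronal nets are built largely from the products of a small group of genes, and 9 of these were followed through the mouse hippocampus: the lecticans Acan, Bcan, Ncan and Vcan, the link proteins Hapln1 and Hapln4, the tenascins Tnr and Tnc, and the receptor phosphatase Ptprz1. The members were taken by symbol, and all 9 were present among the 32285 genes of each library. Nuclear RNA of the hippocampus was sequenced nucleus by nucleus (snRNA-seq) in female C57BL/6J mice, 8 weeks of age when the study began. There were 4 groups with 1 library each: App NL-G-F knock-in mice with exercise, knock-in mice without exercise, wild-type (WT) mice with exercise and WT mice without exercise. The exercise was voluntary wheel running for 10 weeks. The groups are called exercised knock-in, unexercised knock-in, exercised WT and unexercised WT below. The grouping follows the sample titles and treatment tags, although the protocol text mentions a wheel for each sample. App NL-G-F is an allele of the mouse's own App gene with a humanised amyloid-beta sequence and disease mutations, so no transgene promoter is involved. The labels give neither its zygosity nor the number of animals pooled in a library.

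A perineuronal net is a mesh of extracellular matrix that wraps the cell body and proximal dendrites of certain neurons, best known around parvalbumin interneurons and, in the hippocampus, also around CA2 pyramidal neurons. Hyaluronan forms its backbone, the lecticans are chondroitin sulfate proteoglycans that bind hyaluronan, link proteins hold that bond, and tenascins cross-link the far ends of the lecticans. Ptprz1 encodes a chondroitin sulfate-bearing receptor phosphatase whose secreted form, phosphacan, also binds tenascins. The same family builds looser matrix around synapses and at nodes of Ranvier.

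The libraries held between 7203 and 11514 barcodes and between 64158446 and 91676884 unique molecular identifiers (UMIs, counts of captured RNA molecules), and 34744 nuclei were kept in all. Libraries shared 20 to 42 barcodes per pair, at most 0.486% of the smaller one. Nuclei were clustered without the 9 members and named from marker genes into 15 classes, each name meaning that the nuclei resemble that type, and 8 of 34 clusters stayed unnamed. Levels are UMIs of the gene per 1000000 UMIs of the class in a library (CPM), a share of the captured RNA and not a number of molecules per cell. With 1 library a group, no difference between groups has a replicate check. No test was made, and all intervals are 95% intervals for counting error only. Of the dentate granule nuclei of exercised knock-in, 96.1% lay in cluster 1, whereas 90.4% to 98.6% of those of the other libraries lay in cluster 0. The oligodendrocytes were also led by different clusters, cluster 7 in exercised knock-in, cluster 6 in unexercised knock-in and cluster 4 in both WT libraries, so a library and its group cannot be told apart there.

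Several members are chromosomal neighbours. On GRCm38 (mm10, coordinates from GENCODE M21), Ncan (ENSMUSG00000002341) spans chr8:70093085-70120873 on the minus strand and Hapln4 (ENSMUSG00000007594) chr8:70083457-70090862 on the plus strand, 2222 bases apart. Vcan (ENSMUSG00000021614, chr13:89655312-89742509, minus strand) and Hapln1 (ENSMUSG00000021613, chr13:89539796-89611652, plus strand) are 43659 bases apart. Bcan (ENSMUSG00000004892, chr3:87987531-88000230, minus strand) lies 21519 bases from Hapln2, and Acan (ENSMUSG00000030607, chr7:79053483-79115099, plus strand) 2 bases from Hapln3. Tnr (ENSMUSG00000015829, chr1:159523769-159931729, plus strand) is the longest of the 9 at 407961 bases. Tnc (ENSMUSG00000028364) spans chr4:63959785-64047015 on the minus strand and Ptprz1 (ENSMUSG00000068748) chr6:22875502-23052916 on the plus strand. Vcan, Tnr and Tnc overlap noncoding genes, among them the antisense Gm4117 at Vcan. Strand use in counting was not given in the sources used here. Whether reads of these 3 were kept apart from those of their partners was not checked. Gm10530 lies on the same strand as Tnr, so strand alone would not part them.

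Promoters are shown for 2 pairs, Bcan and Ncan because both were highest in exercised knock-in in 7 neuron classes, and Vcan and Hapln1 because these neighbours are highest in different classes. Each line is the 250 bases before the start on the gene's own strand, from RefSeq's table for GRCm38.p6, which held 8 of the 9 members. RefSeq starts can differ from the GENCODE spans above: the Hapln1 window lies inside the GENCODE span and the Ncan window overlaps its end. In capitals are matches, on either strand, to any of 6 short motifs: the TATA box TATAAA, the CCAAT box of those letters, the GC box GGGCGG, the SOX core ACAAAG, the AP-1 motif TGANTCA (N is any base) and the E-box CAGCTG.
Bcan (chr3:88000357-88000606, minus strand): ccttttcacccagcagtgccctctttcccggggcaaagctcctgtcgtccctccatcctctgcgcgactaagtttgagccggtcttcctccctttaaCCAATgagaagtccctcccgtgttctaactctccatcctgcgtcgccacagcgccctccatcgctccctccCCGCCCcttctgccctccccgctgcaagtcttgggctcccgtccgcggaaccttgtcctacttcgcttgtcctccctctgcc
Ncan (chr8:70120845-70121094, minus strand): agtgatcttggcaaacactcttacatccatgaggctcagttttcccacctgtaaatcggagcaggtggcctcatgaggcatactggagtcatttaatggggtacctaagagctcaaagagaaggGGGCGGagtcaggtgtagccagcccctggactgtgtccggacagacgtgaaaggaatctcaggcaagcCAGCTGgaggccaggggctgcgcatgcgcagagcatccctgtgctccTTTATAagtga
Vcan (chr13:89742513-89742762, minus strand): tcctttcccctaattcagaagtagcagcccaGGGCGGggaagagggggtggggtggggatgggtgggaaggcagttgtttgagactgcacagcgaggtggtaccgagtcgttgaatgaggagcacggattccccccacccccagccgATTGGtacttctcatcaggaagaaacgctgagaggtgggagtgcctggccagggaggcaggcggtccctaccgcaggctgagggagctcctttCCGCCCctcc
Hapln1 (chr13:89540386-89540635, plus strand): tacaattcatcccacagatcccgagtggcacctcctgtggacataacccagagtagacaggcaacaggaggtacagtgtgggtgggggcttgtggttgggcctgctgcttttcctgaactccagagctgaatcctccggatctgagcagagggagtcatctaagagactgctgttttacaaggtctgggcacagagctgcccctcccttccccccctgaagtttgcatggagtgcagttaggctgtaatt
The Bcan window held a CCAAT box 153 bases before the start and a GC box on the opposite strand at 82. The Ncan window held a GC box at 126, an E-box at 58 and a TATA box on the opposite strand at 11. Vcan had GC boxes at 219 and, on the opposite strand, 10, and a CCAAT box on the opposite strand at 103. Hapln1 had none of the 6 motifs in this window, and no 2 capital stretches in these 4 windows overlapped. Among 32851 promoter windows of this length, 12.4% held the TATA box, 33.8% the CCAAT box, 32.7% the GC box, 16.5% the SOX core, 6.75% the AP-1 motif and 13% the E-box. These matches describe letters only.

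Acan, which encodes aggrecan, the lectican most closely tied to mature nets, was rare, with 557 UMIs in all kept nuclei. CA2 neurons, 1.25% of the nuclei, held 25.3% of these UMIs. CA2 neurons had 54.3 CPM in exercised knock-in, 9.78 in unexercised knock-in, 24.0 in exercised WT and 18.5 in unexercised WT. The exercised knock-in library was the high one and the unexercised knock-in the low one. Oligodendrocyte precursors had 23.6 CPM in exercised knock-in, 16.1 in unexercised knock-in, 14.0 in exercised WT and 39.8 in unexercised WT, from 3 to 19 UMIs each. The ranges of these 2 classes overlapped, and precursors took the first place with at least 1000 genes a nucleus, with no doublets left out, with the members allowed to shape the clusters and with nuclei thinned to 1500 UMIs. Inhibitory neurons followed at 4.09 to 6.87 CPM, below both classes in each library. Dentate granule neurons had 1.20 to 3.10 CPM, CA3 neurons at most 0.713 and CA1 neurons at most 0.656. No Acan UMI was counted in endothelial cells.

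Bcan encodes brevican, the lectican of the adult brain that astrocytes and the oligodendrocyte lineage are known to make. Astrocytes averaged 520 ± 88.5 CPM (SD over 4 libraries), newly formed oligodendrocytes 486 ± 170 and oligodendrocyte precursors 304 ± 81.9. The 3 glial classes overlapped with their neighbours in this order, and newly formed oligodendrocytes rested on 59 nuclei in all. Only 4 of these were in exercised WT, which counts as much as the other libraries in the average and SD. Every neuron class lay below every value of the 3, between 3.27 and 65.5 CPM. CA2 neurons averaged 39.8 ± 21.3 CPM, inhibitory neurons 37.7 ± 15.6, CA1 neurons 32.4 ± 14.7 and CA3 neurons 25.2 ± 14.3, and their ranges over libraries overlapped. The SD holds the differences between groups, and within each library CA1 neurons were above CA3 neurons. Dentate granule neurons had the lowest average, 7.69 ± 6.40 CPM. Because neurons were many, CA1 neurons alone held 25.6% of all 7655 Bcan UMIs, against 16.1% in astrocytes.

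Ncan encodes neurocan, a secreted lectican that is abundant in the developing brain. Astrocytes averaged 103 ± 43.5 CPM, oligodendrocyte precursors 65.5 ± 22.4, CA2 neurons 54.7 ± 17.8, dentate granule neurons 50.6 ± 13.8, CA1 neurons 41.6 ± 11.4 and CA3 neurons 32.4 ± 11.1 (SD over 4 libraries). Each of these classes overlapped with the next. Inhibitory neurons at 24.4 ± 6.47 CPM and oligodendrocytes at 20.7 ± 5.43 lay below astrocytes in each library. Dentate granule neurons, where Bcan was lowest, held 32.9% of the 10747 Ncan UMIs, near their 31.0% share of the nuclei.

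Vcan encodes versican, which the oligodendrocyte lineage makes and which is found at nodes of Ranvier. Oligodendrocyte precursors had 928 CPM in exercised knock-in, 925 in unexercised knock-in, 684 in exercised WT and 958 in unexercised WT. Exercised WT, with 50 precursor nuclei, was the lowest. Newly formed oligodendrocytes averaged 667 ± 185 CPM and overlapped with the precursors, whereas oligodendrocytes had at most 12.7 CPM. CA2 neurons at 39.7 to 73.3 CPM and inhibitory neurons at 37.4 to 47.0 CPM overlapped and stood above the other neuron classes, which had at most 20.8 CPM.

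The link protein gene Hapln1, whose product fastens lecticans to hyaluronan, had 1078 UMIs. Inhibitory neurons held 67.2% of them in 7.32% of the nuclei. Inhibitory neurons had 23.4 CPM in exercised knock-in, 34.8 in unexercised knock-in, 25.8 in exercised WT and 33.9 in unexercised WT. Both exercised libraries were below both unexercised ones. Astrocytes had 22.8 CPM in exercised knock-in, 56.2 in unexercised knock-in, 73.2 in exercised WT and 70.8 in unexercised WT, from 7 to 65 UMIs each, and exercised knock-in was lowest. The 2 classes overlapped over libraries. CA1, CA2, CA3 and dentate granule neurons had at most 1.60 CPM, and oligodendrocyte precursors at most 8.39 CPM although Vcan, its neighbour, was highest there. Hapln4, a link protein gene known for nets around large projection neurons, stayed at or below 18.1 CPM in every class. Among classes with at least 100 Hapln4 UMIs, inhibitory neurons had 5.15 to 7.40 CPM, CA3 neurons 3.06 to 5.70, CA1 neurons 2.66 to 4.23 and dentate granule neurons 1.67 to 2.43. Each of these ranges overlapped with the next except that dentate granule neurons lay below CA1 neurons. Astrocytes, which led Ncan, its chromosomal neighbour, averaged 5.35 CPM of Hapln4 from 14 UMIs, near the 6.06 CPM of inhibitory neurons.

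**Figure D1:**
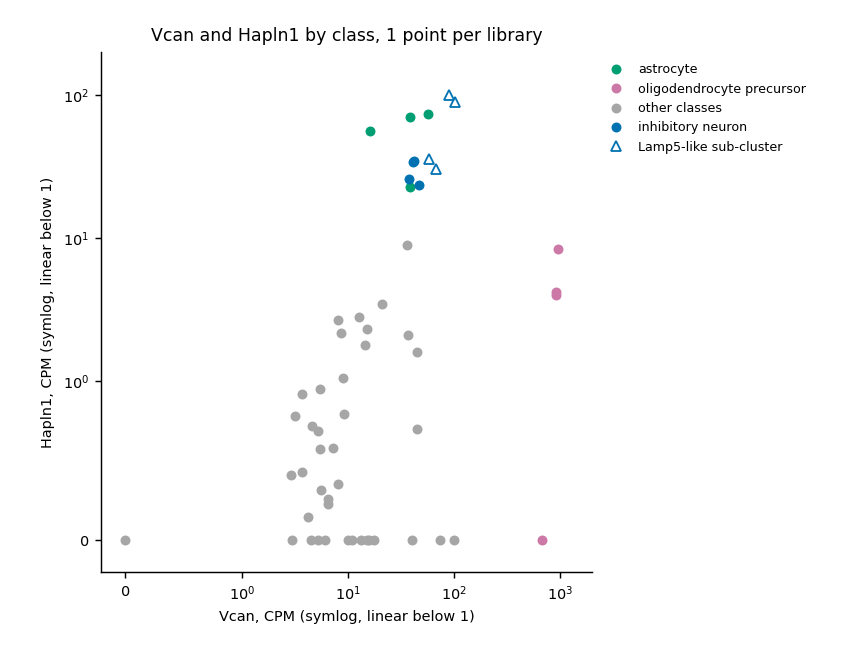
Vcan (x axis) against Hapln1 (y axis), both in CPM on log axes that are linear below 1; each point is 1 class in 1 library, coloured for 3 classes and grey for the others, and open triangles are the Lamp5-like sub-cluster of the inhibitory neurons. Oligodendrocyte precursors sit far right with at most 8.39 CPM of Hapln1, while astrocytes and inhibitory neurons hold Hapln1 at 22.8 CPM or more with Vcan at 56.4 CPM or less.

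The plot of Vcan against Hapln1 shows that the neighbouring genes have different leading classes and that both are present in astrocytes and in inhibitory neurons. It is a description over classes that share libraries.

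Tnr encodes tenascin-R, the cross-linker of nets, made by oligodendrocyte-lineage cells and by some neurons. It was the most counted member, with 182879 UMIs. Newly formed oligodendrocytes had 6684 to 12328 CPM and oligodendrocyte precursors 2754 to 4066 CPM, without overlap. The newly formed class had 4 nuclei in exercised WT and 15 to 24 in the other libraries. Dentate granule neurons had 994 CPM in exercised knock-in, 749 in unexercised knock-in, 1180 in exercised WT and 1086 in unexercised WT, and were the highest neuron class in each library. CA1 neurons averaged 731 ± 143 CPM, CA3 neurons 607 ± 118, inhibitory neurons 535 ± 83.9 and CA2 neurons 312 ± 56.3, each overlapping with the next except CA2 neurons. Oligodendrocytes were lowest on average, at 52.8 to 240 CPM, so within this lineage Tnr was high in precursors and newly formed cells and low in the mature class in each library. Microglia had 134 to 645 CPM of Tnr, a cell type not known for this protein. The 6 granule neuron markers summed there to 1346 CPM in exercised knock-in, 1387 in unexercised knock-in, 1774 in exercised WT and 1710 in unexercised WT. Whether microglia express any of these markers themselves, such as Dock10, was not checked. The part of other cells' RNA in the Tnr values of glia was not tested.

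Tnc encodes tenascin-C, known from radial glia and astrocytes. Astrocytes had 56.9 CPM in exercised knock-in, 80.3 in unexercised knock-in, 106 in exercised WT and 94.7 in unexercised WT, and held 45.3% of the 464 UMIs. Both knock-in libraries were below both WT ones, but without exercise the log2 ratio was -0.24, within 1.5-fold. Unexercised knock-in had 64 astrocyte nuclei. Oligodendrocyte precursors followed at 14.0 to 44.2 CPM without overlap. No Tnc UMI was counted in CA2 neurons or microglia, and CA1, CA3 and dentate granule neurons had at most 0.292 CPM. Fibroblasts had 52.1 CPM in exercised WT and 0 to 6.03 CPM in the other libraries. Ptprz1 was highest in oligodendrocyte precursors, at 2008 to 2484 CPM, just above astrocytes at 1166 to 1984. Dentate granule neurons at 160 to 198 CPM and inhibitory neurons at 171 to 189 overlapped. CA1 neurons had 53.7 to 56.7 CPM and CA3 neurons 20.3 to 39.6, both below the dentate granule and inhibitory neurons in every library.

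**Figure D2:**
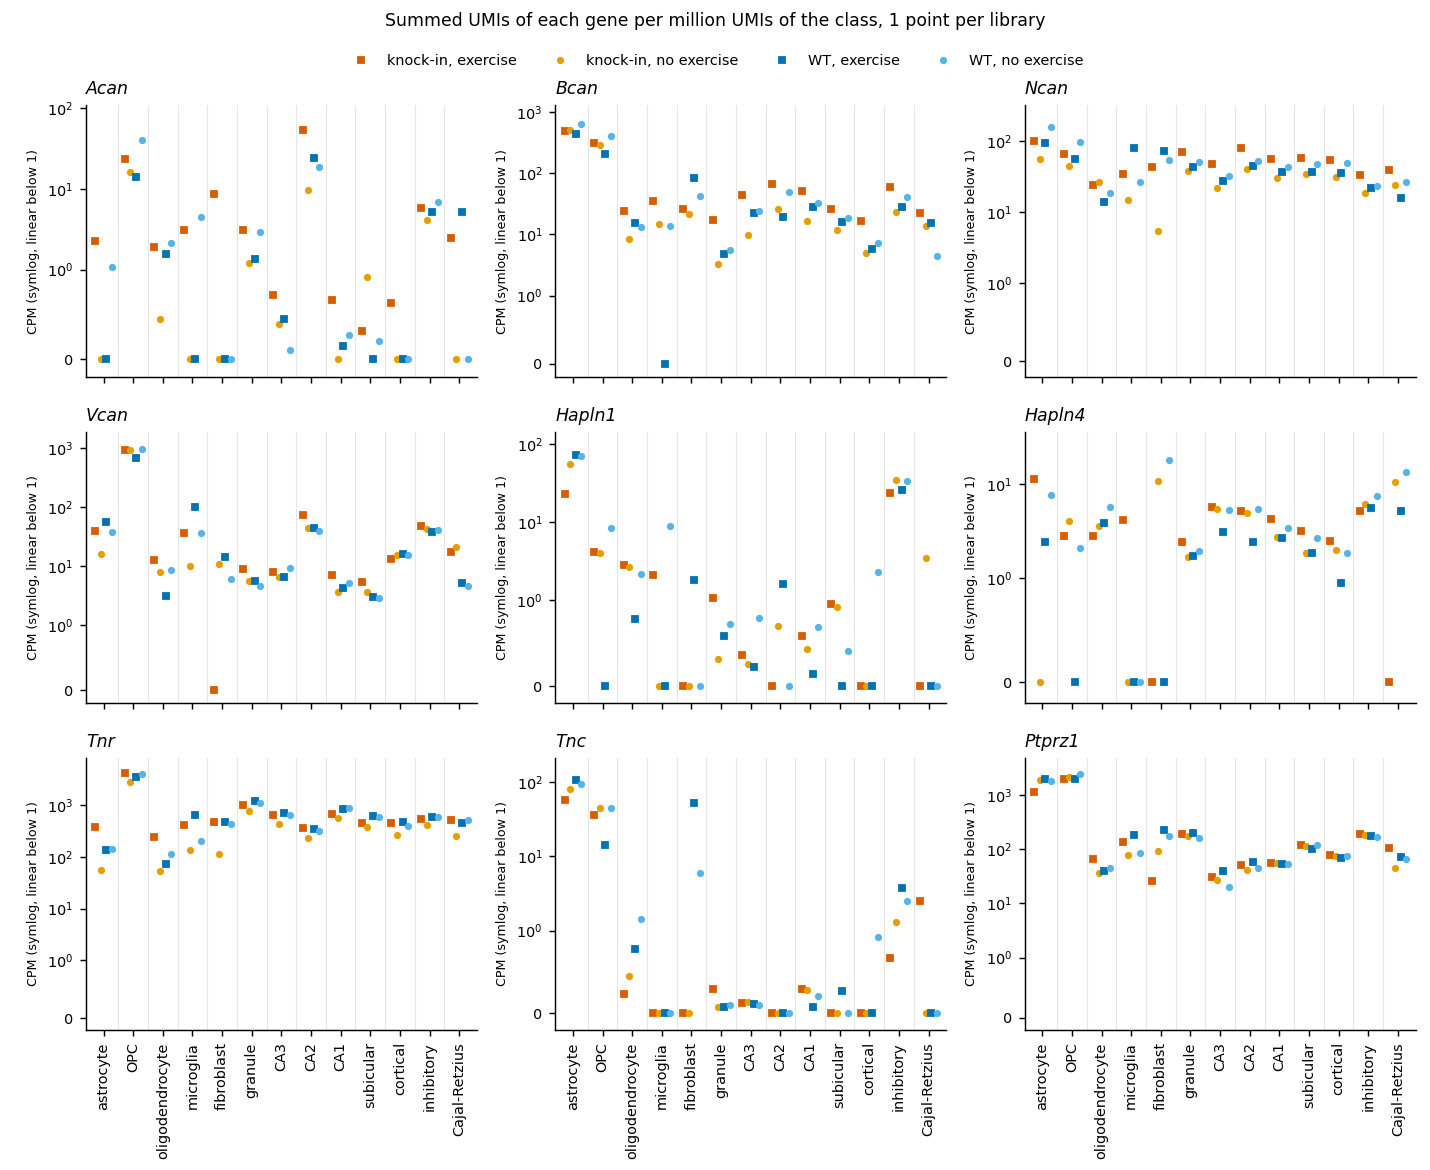
Level of each gene in CPM (y axis, log scale, linear below 1) by class (x axis, OPC for oligodendrocyte precursor); each point is 1 library and the colours and shapes are the 4 groups. Vcan, Tnr, Tnc and Ptprz1 peak in glial classes, Acan in CA2 neurons and OPC, Hapln1 in astrocytes and inhibitory neurons, and Hapln4 has no clear peak.

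The plot of levels by class has 1 panel per gene, so levels are to be compared along a panel and not between panels, since the genes differ in length. Tnr has UMIs in every class of every library, whereas Tnc and Hapln1 are at or near 0 CPM in most neurons.

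Inhibitory neurons were split further, since parvalbumin neurons carry the best-known nets. The 417 Pvalb-like nuclei, 16.4% of the inhibitory ones, held 56.9% of the inhibitory Acan UMIs, 43.9% of those of Bcan and 34.7% of those of Hapln4. Acan in Pvalb-like nuclei was 25.4 CPM in exercised knock-in, 17.0 in unexercised knock-in, 14.2 in exercised WT and 21.4 in unexercised WT. Each of these was above the Sst-like value of the same library (3.50 CPM in exercised knock-in, 3.04 in unexercised knock-in, 8.95 in exercised WT and 4.35 in unexercised WT). The Sst-like nuclei were not uniform, since 1 of their sub-clusters, with 81 nuclei, held 14 of their 21 Acan UMIs at 16.4 CPM (7.10 to 29.1), a range that overlaps with those of the Pvalb-like sub-clusters, whose averages were 14.0 to 22.0 CPM. Vip-, Cck- and Lamp5-like nuclei together held 4 Acan UMIs. Bcan in Pvalb-like nuclei was 157 CPM in exercised knock-in, 69.8 in unexercised knock-in, 87.5 in exercised WT and 104 in unexercised WT. Pvalb-like nuclei led the named sub-clusters in each library for Bcan and Tnr. Tnr averaged 746 ± 108 CPM (SD over 4 libraries) in Pvalb-like and 577 ± 111 CPM in Sst-like nuclei. It was 839 against 507 CPM in exercised knock-in and 591 against 458 in unexercised knock-in. In exercised WT it was 763 against 682 CPM and in unexercised WT 791 against 661. Single sub-clusters overlapped, with Pvalb-like averages of 535 to 1185 CPM and Sst-like ones of 216 to 913 CPM. Hapln4 averaged 12.8 ± 2.52 CPM in Pvalb-like nuclei, from 52 UMIs. An unnamed sub-cluster of 14 nuclei from the 2 WT libraries, led by mitochondrial genes, had more of Hapln4 (58.9 CPM, 9 UMIs) and of Acan (41.7 CPM, 5 UMIs).

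The other members had their inhibitory peaks elsewhere. Ncan was lowest on average in Pvalb-like nuclei, 12.3 ± 6.51 CPM, and highest in Vip-like nuclei, 34.5 ± 9.60 CPM (SD over 4 libraries). Ptprz1 averaged 571 ± 75.4 CPM in Vip-like and 37.0 ± 9.04 CPM in Pvalb-like nuclei, which did not overlap. The Vip-like average joins a sub-cluster of 179 nuclei at 773 CPM and one of 77 nuclei at 145 CPM, the second below the Cck- and Lamp5-like averages, and an unnamed sub-cluster of 101 nuclei had 732 CPM. Vcan averaged 79.6 ± 19.8 CPM and Hapln1 63.9 ± 35.9 CPM in Lamp5-like nuclei, against 3.07 ± 1.91 CPM and 15.2 ± 2.21 CPM in Pvalb-like nuclei. Both were higher still in a sub-cluster of 299 nuclei that stayed unnamed because it rested on under 3 markers, with Sfta3-ps, Car8 and Lamp5 among its leading genes. There Vcan averaged 247 CPM (228 to 273) and Hapln1 168 CPM (117 to 233). Of the 50 inhibitory Tnc UMIs, 62.0% were in Cck-like nuclei, all 31 of them in 1 sub-cluster of 151 nuclei. They came from few nuclei, 2 UMIs in 1 nucleus in exercised knock-in, 3 in 2 nuclei in unexercised knock-in, 16 in 3 nuclei in exercised WT and 10 in 4 nuclei in unexercised WT.

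**Figure D3:**
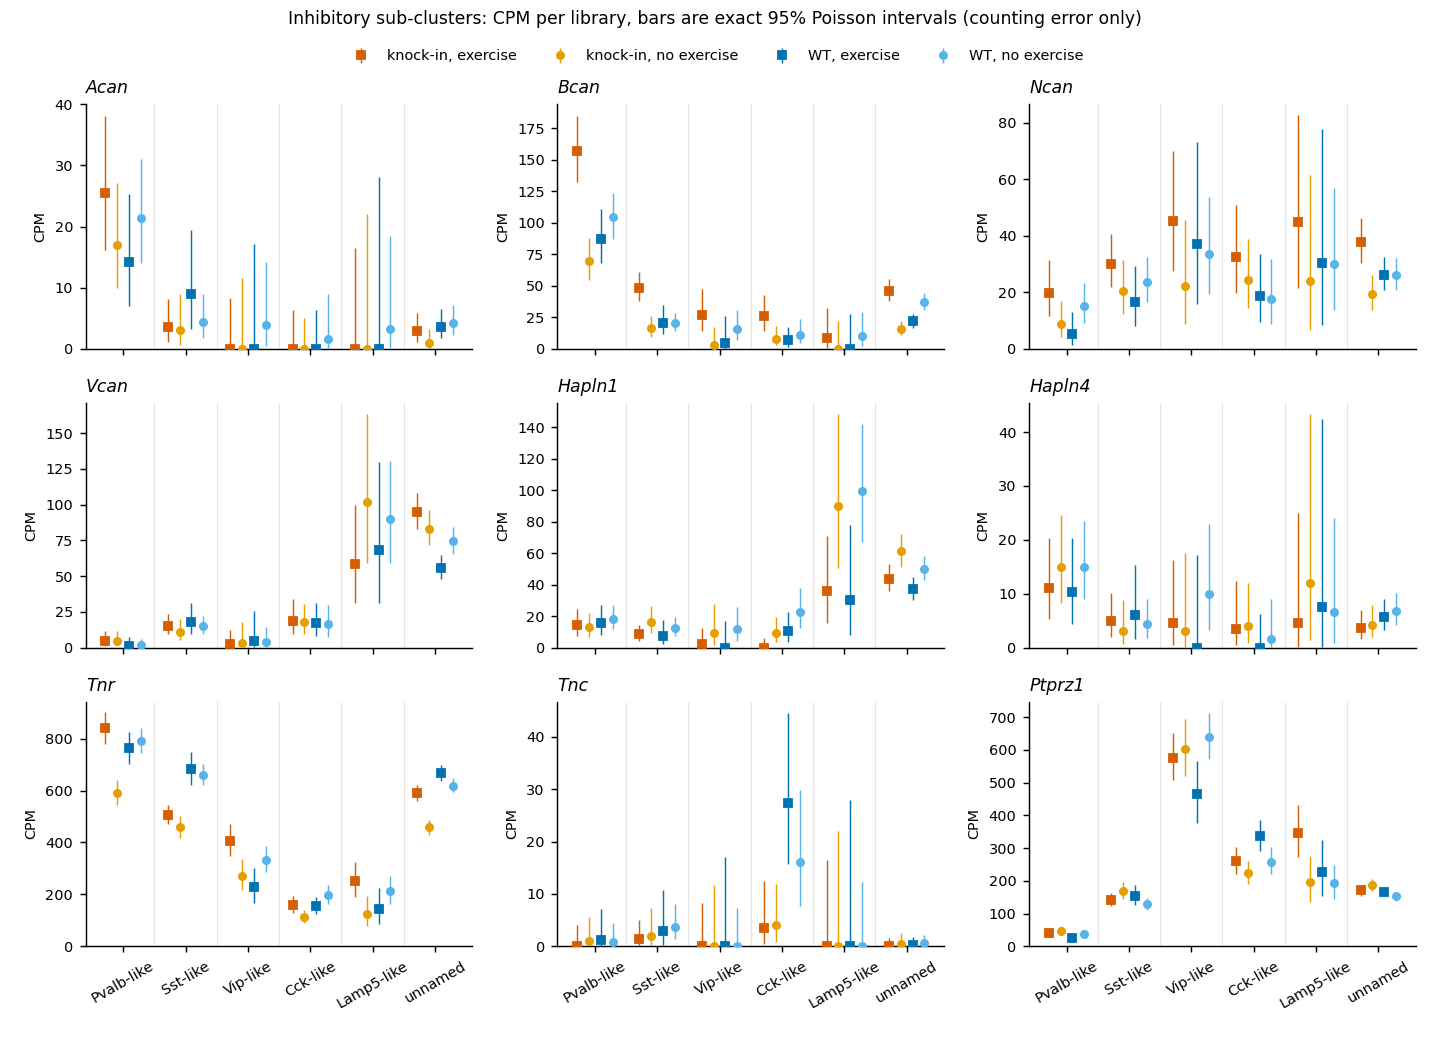
Level of each gene in CPM (y axis, linear from 0) in the inhibitory sub-clusters (x axis); points are libraries and bars exact Poisson 95% intervals for counting error only. Acan, Bcan and Hapln4 are highest in Pvalb-like nuclei, Ptprz1 in Vip-like nuclei, and Vcan and Hapln1 in Lamp5-like and unnamed nuclei.

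The plot of inhibitory sub-clusters shows how wide the counting intervals are where nuclei are few. The Lamp5-like point of exercised WT rests on 17 nuclei. The sub-cluster with the highest average among the 5 named ones was the same for all 9 members under each of the 8 alternative processings that were run.

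Genotype was first compared without exercise. Bcan, Ncan and Tnr were lower in unexercised knock-in than in unexercised WT in nearly every class. Bcan was below 0 on the log2 scale in 9 of 9 classes with enough UMIs, Ncan in 9 of 10 and Tnr in 13 of 13. The median of all genes was also below 0 in each class, from -0.03 to -0.29, and the share of all genes below 0 was not counted. A pair of a member and a class counts as measured with at least 50 UMIs over both libraries and as higher or lower past 1.5-fold. Of 117 pairs, 58 were measured, 0 were higher and 18 were lower. Over all genes and classes, 12% of measured pairs were higher and 12.5% lower. With class totals as the scale, the median over all genes was near 0 in the main neuron classes, -0.04 in CA1 neurons, -0.03 in dentate granule neurons and -0.13 in CA3 neurons on the log2 scale. It was lower in CA2 neurons at -0.20, astrocytes at -0.19, Cajal-Retzius cells at -0.17 and fibroblasts at -0.29, where 20.8%, 27.2%, 15% and 33.0% of all measured genes were lower past the fold.

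Bcan in CA1 neurons was 16.5 CPM (232 UMIs) in unexercised knock-in and 32.7 CPM (617 UMIs) in unexercised WT, a log2 ratio of -0.99 (interval -1.21 to -0.77). In CA3 neurons Bcan was 9.94 CPM in unexercised knock-in and 23.8 CPM in unexercised WT, a log2 ratio of -1.26 (-1.65 to -0.88). Its log2 ratio was -0.91 in CA2 neurons, -0.77 in inhibitory neurons, -0.76 in dentate granule neurons and -0.63 in subicular neurons. In astrocytes, the class with the highest average, it was 514 CPM in unexercised knock-in and 644 CPM in unexercised WT and did not pass 1.5-fold. Tnr was 556 CPM in unexercised knock-in and 866 CPM in unexercised WT in CA1 neurons, a log2 ratio of -0.64 (-0.68 to -0.60) that came to -0.54, under 1.5-fold, when the total left out mitochondrial and the 50 highest genes. The log2 ratio of Tnr was also -0.64 in subicular neurons, -0.98 in Cajal-Retzius cells, -1.08 in oligodendrocytes, -1.33 in astrocytes and -1.93 in fibroblasts. The 6 precursor markers summed to 16.1 CPM in unexercised knock-in and 51.2 CPM in unexercised WT in these astrocytes and to 63.9 CPM in unexercised knock-in and 50.4 CPM in unexercised WT in these oligodendrocytes. Neu4 was at 0 in both astrocyte sums and Lhfpl3, C1ql1 and Megf11 also in unexercised knock-in, and the markers' part in the Tnr ratios was not tested. Ncan was -0.65 in cortical neurons, -1.12 in oligodendrocyte precursors and -1.52 in astrocytes, the last from 7 UMIs in unexercised knock-in. Acan was -1.29 in dentate granule neurons and -0.75 in inhibitory neurons. In dentate granule neurons, 0 of 7 measured members were higher and 2 lower, where all genes gave 14.0% and 6.98%. In inhibitory neurons, 0 of 8 were higher and 2 lower, where all genes gave 12.5% and 8.31%.

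With exercise, the knock-in library was the higher one for Bcan in 9 of 9 measured classes and for Ncan in 10 of 10. Acan was above 0 in 3 of 3 classes and Vcan in 7 of 9. The median of all genes was also above 0 in each class, from 0.03 in endothelial cells to 0.26 in CA1 neurons. The share of all genes above 0 was not counted. Of 126 pairs, 65 were measured, 27 were higher in exercised knock-in than in exercised WT and 5 were lower. Over all genes, 24.2% of measured pairs were higher and 7.91% lower. The median of all genes was itself raised, by 0.22 on the log2 scale in dentate granule neurons, 0.24 in inhibitory neurons, 0.25 in CA3 neurons and 0.26 in CA1 neurons. With TMM factors, which correct such shifts, 15 member pairs were higher, beside 15.5% of pairs over all genes, and 7 lower, beside 12.5%.

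Bcan in dentate granule neurons was 17.2 CPM (360 UMIs) in exercised knock-in and 4.75 CPM (66 UMIs) in exercised WT, a log2 ratio of 1.86 (1.47 to 2.26). In CA2 neurons it was 65.5 CPM in exercised knock-in and 19.2 CPM in exercised WT, a log2 ratio of 1.77 (1.09 to 2.50). The log2 ratio of Bcan was 1.05 in inhibitory neurons, 0.97 in CA3 neurons, 0.86 in CA1 neurons and 0.72 in subicular neurons, each above the shift of all genes. Ncan passed in 8 classes with log2 ratios of 0.61 in cortical neurons to 0.87 in CA2 neurons. In CA1 and dentate granule neurons its ratios of 0.63 and 0.67 came to 0.40 and 0.49, under 1.5-fold, with TMM factors. Acan was 54.3 CPM in exercised knock-in and 24.0 CPM in exercised WT in CA2 neurons, a log2 ratio of 1.18 (0.53 to 1.86), and also 1.18 in dentate granule neurons. Vcan was 0.72 in dentate granule neurons, 0.71 in CA2 neurons, 0.78 in CA1 neurons and 2.03 in oligodendrocytes, the last against 4 UMIs in exercised WT. Hapln4 was 0.67 in CA1 neurons and 0.90 in CA3 neurons, and the value in CA3 neurons turned to -1.14 after thinning. With TMM factors, the ratios of Vcan in dentate granule, CA2 and CA1 neurons and of Hapln4 in CA1 neurons also came under 1.5-fold. So did those of Ncan in cortical neurons and of Bcan in subicular neurons.

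Glia gave both directions with exercise. In astrocytes, Ptprz1, Hapln1 and Tnc were lower and Tnr was higher. Ptprz1 was 1166 CPM in exercised knock-in and 1984 CPM in exercised WT, a log2 ratio of -0.77 (-0.91 to -0.62) that came to -0.31 with no doublets left out. Hapln1 had 10 UMIs in exercised knock-in and 61 in exercised WT, a log2 ratio of -1.68 (-2.81 to -0.71), and Tnc was -0.89 (-1.59 to -0.24). Tnr was the opposite, 380 CPM in exercised knock-in and 138 CPM in exercised WT, a log2 ratio of 1.46 (1.11 to 1.82) that came to 0.08 with no doublets left out. These astrocytes numbered 116 in exercised knock-in and 336 in exercised WT. Their own 7 markers summed to 14645 CPM in exercised knock-in and 21758 CPM in exercised WT, and the 6 precursor markers to 198 CPM in exercised knock-in, all 6 detected, and 46.8 CPM in exercised WT with Neu4 at 0. The part of other cells' RNA in these astrocyte ratios was not tested. In oligodendrocytes Tnr was 240 CPM in exercised knock-in and 73.2 CPM in exercised WT, a log2 ratio of 1.71 (1.41 to 2.03), beside precursor markers at 106 CPM in exercised knock-in and 42.8 CPM in exercised WT, whose part was not tested. Ncan was 0.76 and Ptprz1 0.71 in oligodendrocytes, the last turning to -0.73 with finer clusters (Leiden resolution 2.0). Tnr was 0.89 in endothelial cells and -0.62 in microglia, and Ptprz1 -3.13 in fibroblasts from 3 UMIs in exercised knock-in. In dentate granule neurons, 4 of 7 measured members were higher and 0 lower, where all genes gave 23.7% and 7.45%. In inhibitory neurons, 2 of 8 were higher and 0 lower, where all genes gave 24.1% and 5.69%.

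**Figure D4:**
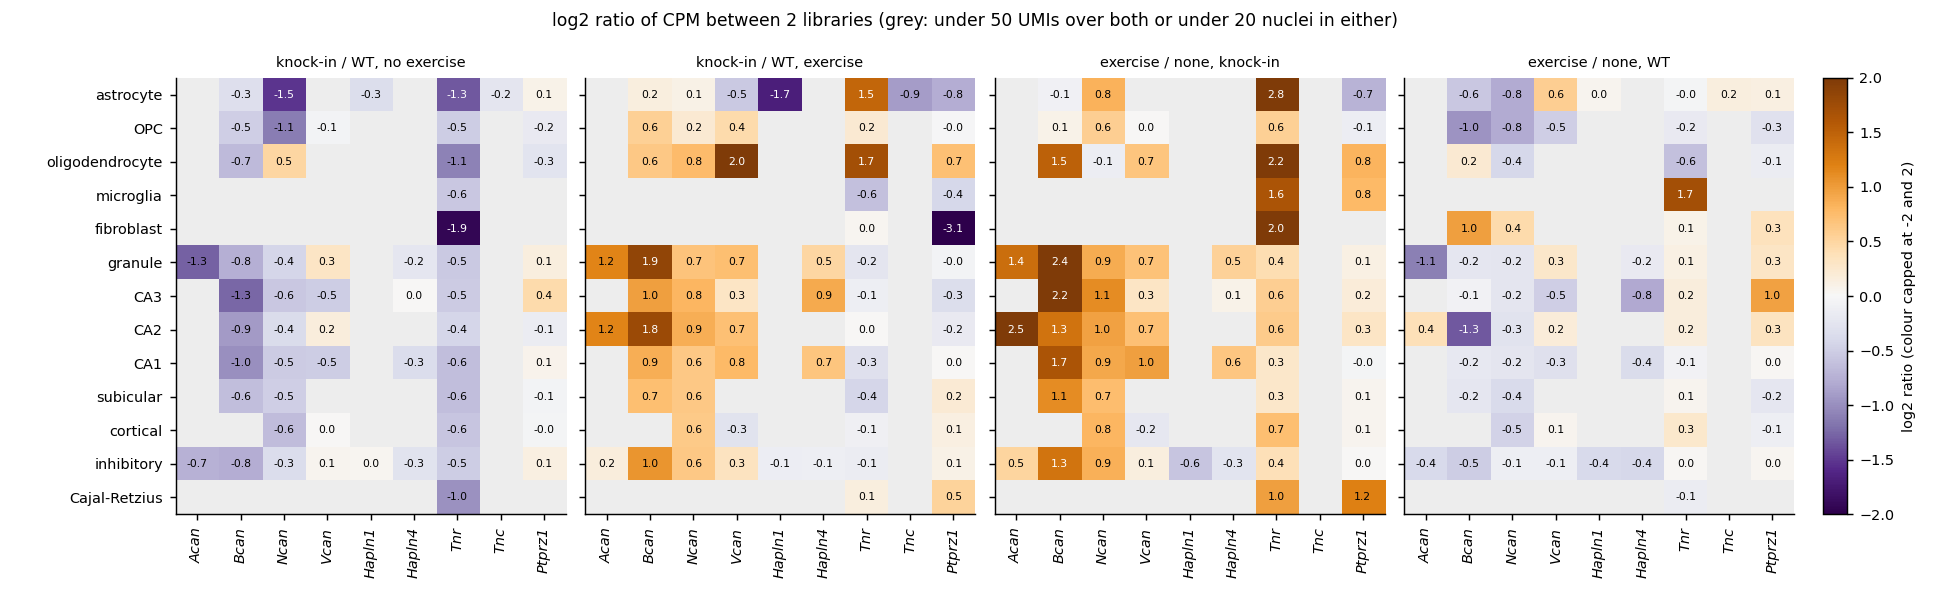
Log2 ratio of CPM between 2 libraries for each gene (x axis) and class (y axis) in the 4 comparisons; colour is capped at -2 and 2, and grey marks pairs with under 50 UMIs over both libraries or under 20 nuclei in either. Bcan, Ncan and Tnr are purple (lower) in nearly all classes for knock-in over WT without exercise, and Bcan and Ncan are orange (higher) in neurons for the 2 comparisons with exercised knock-in on top.

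The plot of log2 ratios also shows that the 4 comparisons are not independent. Exercised knock-in is on top in 2 of them and unexercised knock-in enters 2 with opposite sign, so their values stand side by side here and no overlap between them is counted.

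Within the knock-in, most member pairs past the fold were higher with exercise. Of 117 pairs, 60 were measured, 32 were higher in exercised than in unexercised knock-in and 1 was lower, and over all genes 26.0% were higher and 16.1% lower. Bcan passed in 7 classes, Ncan in 8 and Tnr in 7. The median of all genes stood at 0.11 on the log2 scale in dentate granule and CA1 neurons, 0.13 in inhibitory neurons, 0.17 in CA3 neurons and 0.25 in CA2 neurons.

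Bcan in dentate granule neurons was 17.2 CPM (360 UMIs) in exercised knock-in and 3.27 CPM (41 UMIs) in unexercised knock-in, a log2 ratio of 2.39 (1.93 to 2.90). In CA3 neurons it was 44.4 CPM in exercised knock-in and 9.94 CPM in unexercised knock-in, a log2 ratio of 2.16 (1.80 to 2.54). CA1 neurons gave 1.65 (1.44 to 1.87), oligodendrocytes 1.51, CA2 neurons 1.34, inhibitory neurons 1.31 and subicular neurons 1.12. In astrocytes and oligodendrocyte precursors, where Bcan averages were several-fold above those of neurons, Bcan was within 1.5-fold, at 485 CPM in exercised knock-in and 514 CPM in unexercised knock-in in astrocytes and at 309 CPM in exercised knock-in and 289 CPM in unexercised knock-in in precursors. Ncan was 69.6 CPM (1458 UMIs) in exercised knock-in and 38.0 CPM (476 UMIs) in unexercised knock-in in dentate granule neurons, a log2 ratio of 0.88 (0.72 to 1.03). Its other log2 ratios past the fold with an interval above 0 ran from 0.74 in subicular neurons to 1.11 in CA3 neurons.

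Markers of other classes were read in the same neurons. In dentate granule neurons the 7 astrocyte markers summed to 271 CPM in exercised knock-in, 193 in unexercised knock-in, 215 in exercised WT and 221 in unexercised WT, and the 6 precursor markers to 86.4 CPM in exercised knock-in, 46.4 in unexercised knock-in, 50.4 in exercised WT and 49.5 in unexercised WT. The 6 inhibitory neuron markers summed there to 256 CPM in exercised knock-in, 113 in unexercised knock-in, 95.7 in exercised WT and 143 in unexercised WT. All 3 lists were highest in exercised knock-in, as Bcan was. In CA1 neurons the astrocyte markers summed to 551 CPM in exercised knock-in, 747 in unexercised knock-in, 706 in exercised WT and 698 in unexercised WT, so they were lowest in exercised knock-in, where Bcan was highest. The inhibitory markers in CA1 neurons summed to 130 CPM in exercised knock-in, 43.4 in unexercised knock-in, 33.1 in exercised WT and 58.5 in unexercised WT, and the precursor markers to 136 CPM in exercised knock-in, 82.2 in unexercised knock-in, 86.8 in exercised WT and 77.5 in unexercised WT. Every marker of these lists was detected in these sums except Slc7a10, an astrocyte marker, in CA1 neurons of unexercised knock-in. The part of astrocyte, precursor and inhibitory RNA in the Bcan ratios was not tested.

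**Figure D5:**
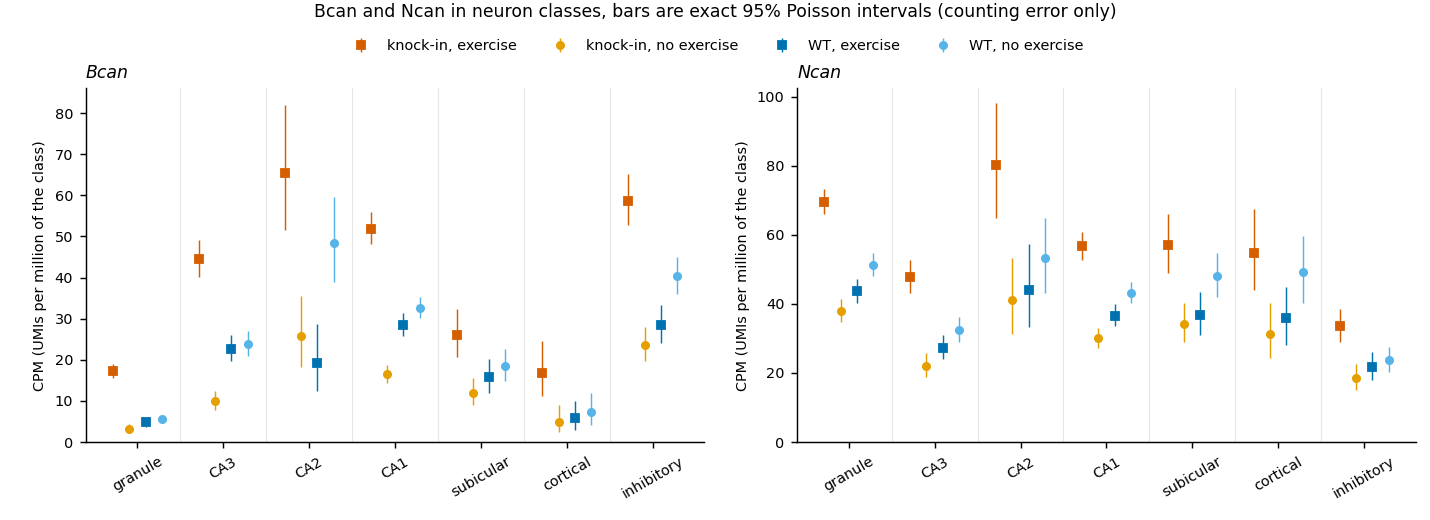
Bcan (left) and Ncan (right) in CPM (y axes, linear from 0) in 7 neuron classes (x axes); points are libraries and bars exact Poisson 95% intervals for counting error only. Exercised knock-in is the highest library in each class for both genes, and unexercised knock-in the lowest in each except for Bcan in CA2 neurons.

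The plot of Bcan and Ncan in neurons shows the 2 WT libraries lying between the 2 knock-in ones for Ncan in all 7 classes and for Bcan in all but CA2 neurons. For Bcan in dentate granule neurons, exercised knock-in stood at 17.2 CPM while the other libraries spanned 3.27 to 5.54 CPM.

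Acan in CA2 neurons was 54.3 CPM (63 UMIs) in exercised knock-in and 9.78 CPM (14 UMIs) in unexercised knock-in, a log2 ratio of 2.47 (1.62 to 3.42), and in dentate granule neurons the ratio was 1.38 (0.55 to 2.29). CA2 nuclei numbered 68 in exercised knock-in and 118 in unexercised knock-in, and the 6 CA2 markers summed there to 393 CPM in exercised knock-in and 238 CPM in unexercised knock-in. In the same CA2 nuclei the 6 inhibitory markers summed to 103 CPM in exercised knock-in, 24.4 in unexercised knock-in, 32.8 in exercised WT and 41.4 in unexercised WT, and the 6 precursor markers to 58.6 CPM in exercised knock-in, 30.7 in unexercised knock-in, 38.4 in exercised WT and 45.7 in unexercised WT. All 6 inhibitory markers were detected in both knock-in libraries, and of the precursor markers C1ql1, Neu4 and Cacng4 were at 0 in exercised knock-in and Pdgfra and Cacng4 at 0 in unexercised knock-in. Their part in the Acan ratio was not tested. Vcan was 0.98 in CA1 neurons and 0.69 in dentate granule neurons. In CA2 neurons Vcan was 0.71 and Tnr 0.60, which turned to -0.34 and -0.04 after thinning. Hapln4 was 0.65 in CA1 neurons. Hapln1, measured only in inhibitory neurons in this comparison, was 23.4 CPM in exercised knock-in and 34.8 CPM in unexercised knock-in.

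Tnr was above 0 in 13 of 13 classes. So was the median of all genes, from 0.06 in oligodendrocytes to 0.34 in fibroblasts, and the share of all genes above 0 was not counted. In oligodendrocytes Tnr was 240 CPM (1018 UMIs) in exercised knock-in and 52.8 CPM (119 UMIs) in unexercised knock-in, a log2 ratio of 2.18 (1.91 to 2.47). In astrocytes it was 380 CPM (167 UMIs) in exercised knock-in and 56.2 CPM (7 UMIs) in unexercised knock-in, a log2 ratio of 2.76 (1.68 to 4.09) that came to 0.55, under 1.5-fold, with no doublets left out. Precursor markers summed to 106 CPM in exercised knock-in and 63.9 CPM in unexercised knock-in in these oligodendrocytes. They summed to 198 CPM in exercised knock-in and 16.1 CPM in unexercised knock-in in these astrocytes, with Lhfpl3, C1ql1, Neu4 and Megf11 at 0 in astrocytes of unexercised knock-in. Granule neuron markers in these astrocytes summed to 965 CPM in exercised knock-in and 410 CPM in unexercised knock-in, and oligodendrocyte markers to 1270 CPM in exercised knock-in and 635 CPM in unexercised knock-in, every marker detected. The part of these RNAs in the Tnr ratios was not tested. Tnr was also 2.05 in fibroblasts, 0.98 in Cajal-Retzius cells and 0.73 in cortical neurons, and 1.64 in microglia, turning to -0.23 with at least 1200 UMIs and -0.25 with at least 1000 genes a nucleus. Ptprz1 was -0.73 (-0.95 to -0.50) in astrocytes, which came to -0.29 with no doublets left out, and 0.83 in oligodendrocytes. Its ratios of 1.22 in Cajal-Retzius cells and 0.77 in microglia turned to -0.02 and -0.29 after thinning. In dentate granule neurons, 4 of 7 measured members were higher and 0 lower, where all genes gave 23.5% and 18.9%. In inhibitory neurons, 2 of 8 were higher and 0 lower, where all genes gave 23.7% and 16.4%.

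Exercise in WT gave few member pairs past the fold. Of 126 pairs, 64 were measured, 3 were higher in exercised than in unexercised WT and 7 were lower, and over all genes 3.14% were higher and 9.44% lower. The median of all genes was -0.12 in dentate granule neurons, -0.15 in CA1 neurons and -0.16 in CA2 neurons on the log2 scale. Bcan was 19.2 CPM (24 UMIs) in exercised WT and 48.4 CPM (89 UMIs) in unexercised WT in CA2 neurons, a log2 ratio of -1.33 (-2.05 to -0.67). It was -0.96 (-1.47 to -0.49) in oligodendrocyte precursors. Ncan was -0.79 in astrocytes and Acan -1.10 in dentate granule neurons. Hapln4 was -0.81 in CA3 neurons, which turned to 0.59 after thinning. Ptprz1 was 39.6 CPM in exercised WT and 20.3 CPM in unexercised WT in CA3 neurons, a log2 ratio of 0.96 (0.71 to 1.22) that came to 0.41 with no doublets left out, 0.46 with finer clusters and 0.55 with at least 1200 UMIs a nucleus. Tnr was -0.61 in oligodendrocytes, coming to -0.03 with finer clusters, and 1.71 in microglia, where exercised WT had 25 nuclei, 32 Tnr UMIs and precursor markers at 827 CPM against 112 CPM in unexercised WT. The part of precursor RNA there was not tested. In dentate granule neurons, 0 of 7 measured members were higher and 1 lower, where all genes gave 2.19% and 6.49%. In inhibitory neurons, 0 of 8 were higher and 0 lower, where all genes gave 2.52% and 8.96%.

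Pvalb-like nuclei, the usual bearers of nets, had enough Bcan UMIs in each library for the 4 comparisons. Bcan was 1.17 (0.74 to 1.60) for exercise in the knock-in, 0.84 (0.42 to 1.28) for genotype with exercise, -0.58 (-1.02 to -0.15) for genotype without exercise and -0.26 (-0.70 to 0.18) for exercise in WT on the log2 scale. In Sst-like nuclei Bcan was 1.57 (0.77 to 2.46) for exercise in the knock-in and 1.21 (0.37 to 2.15) for genotype with exercise. The other comparisons had too few UMIs there. Of all genes measured, 26.7% in Pvalb-like and 25.6% in Sst-like nuclei were higher past 1.5-fold for exercise in the knock-in. For genotype with exercise these shares were 24.2% and 24.0%. Tnr in Pvalb-like nuclei lay within 1.5-fold in all 4. Acan had 78 UMIs in Pvalb-like nuclei over the 4 libraries, too few in any pair for a ratio to be read.

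The rest of the machinery was read from 6 lists with 81 of their 82 genes in the files: hyaluronan synthesis and breakdown, other link proteins and matrix partners, chondroitin sulfate synthesis, matrix proteases and inhibitors, receptors and ligands, and other brain proteoglycans. Of the 19 chondroitin sulfate synthesis genes with at least 200 UMIs, 5 had their highest average in microglia and 4 each in fibroblasts and oligodendrocyte precursors. The 200 UMIs were counted over all kept nuclei, and the averages weight the 4 libraries equally. Exercised WT had 25 microglial nuclei, so the microglial averages in these lists can rest on few UMIs. Of the 13 other proteoglycans, 3 each were highest in fibroblasts and precursors, and of the 11 proteases and inhibitors 5 were highest in fibroblasts and 4 in astrocytes. Examples chosen after their values were seen, all highest in precursors, were Xylt1, which starts chondroitin sulfate chains, at 2353 CPM, Chst11, a chondroitin sulfotransferase, at 690 CPM, and Cspg4, the NG2 proteoglycan, at 282 CPM (means of 4 libraries). Hapln2, the link protein of nodes of Ranvier, was highest in oligodendrocytes at 295 CPM, as was Adamts4, a protease that cuts lecticans, at 86.3 CPM. Of the 14 receptor and ligand genes with enough UMIs, 3 were highest in microglia and 2 each in astrocytes, precursors, fibroblasts and Cajal-Retzius cells.

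In dentate granule neurons, 57 list genes were measured. For genotype without exercise 5 were higher and 5 lower (8.77% each), beside 14.0% and 6.98% of all genes, with a median log2 ratio of -0.04. For genotype with exercise 20 were higher and 4 lower (35.1% and 7.02%), beside 23.7% and 7.45%, with a median of 0.27. For exercise in the knock-in 18 were higher and 7 lower (31.6% and 12.3%), beside 23.5% and 18.9%, with a median of 0.16. For exercise in WT 2 were higher and 7 lower (3.51% and 12.3%), beside 2.19% and 6.49%, with a median of -0.12. The highest and lowest genes for exercise in the knock-in were Fbln2, a fibulin that binds lecticans, at 1.70 and Fbln1 at -0.94 among the matrix partners, and Xylt1 at 0.98 and B3galt6, a linker enzyme, at -1.25 in chondroitin sulfate synthesis. Agrn (agrin) at 1.49 and Dcn (decorin) at -1.61 marked the ends of the other proteoglycans, and Rtn4rl1, a Nogo receptor homologue, at 1.31 and Itgb1 (integrin beta 1) at -0.75 those of the receptors. Hyal1, a hyaluronidase, was -1.85 and Timp4, a metalloprotease inhibitor, -1.47.

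In inhibitory neurons, 49 list genes were measured. For genotype without exercise 5 were higher and 10 lower, beside 12.5% and 8.31% of all genes, and Chst11 was -0.69. For genotype with exercise 14 were higher and 4 lower, beside 24.1% and 5.69%. For exercise in the knock-in 15 were higher and 5 lower, beside 23.7% and 16.4%, with Chst11 at 1.22, Ptprf, a receptor phosphatase of the chondroitin sulfate receptor family, at 1.29, and Hyal1 at -1.14. For exercise in WT 2 were higher and 7 lower, beside 2.52% and 8.96%, with Chpf, a chondroitin polymerising factor, at -1.19. The list genes thus had both directions in each comparison.

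Genes with the most similar pattern were found by Pearson correlation of log2(CPM + 1) over 52 sums, 13 classes in 4 libraries, among 10719 genes. These sums share libraries, depth and classes, so r is a description. Tnr was most like Myt1 (r = 0.91), D630045J12Rik (0.86) and Dscam (0.85), and Tnc most like Tlcd1 (0.92), Als2cl (0.91) and Asrgl1 (0.90). Ptprz1 was most like Als2cl (0.89), Cspg5 (0.88) and Gm33680 (0.88). For Bcan the list held another member, Tnc (0.83), beside Gm26512 (0.84) and Myo10 (0.83). Vcan was most like Emid1 (0.82), Neu4 (0.79) and A930009A15Rik (0.79), and the genes like Hapln1 included Sox1ot (0.82) and Gabrg1 (0.78). The likeness was weaker for Ncan with Apc2 (0.74), Arhgef4 (0.67) and Nim1k (0.66) and for Acan with Ptpro (0.65), Dnah5 (0.64) and Ackr3 (0.63). Hapln4 was likewise weak, 0.66 with Washc5, followed by Dhcr7 and Polr2h at 0.58.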

How the data were processed

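Nuclei from snap-frozen hippocampus were profiled with the 10x Chromium 3' v3.1 chemistry, per the labels' protocols. The authors deposited 1 matrix of whole UMI counts per library, not normalised, aligned to mm10 per the submitters' processing notes. Those notes name Cell Ranger 3.1.0, whereas the matrix headers name 5.0.1. The use of intron reads and of strand was not given in the sources used here. Intron reads, if counted, favour long genes, so levels were compared within a gene only.

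A barcode was kept from 500 genes and 1000 UMIs upward if mitochondrial genes gave less than 5.0% of its UMIs. The lowest deposited barcode had 1199 UMIs in exercised knock-in and 500 to 504 in the other libraries. The nuclei most like sums of nucleus pairs were left out as doublets (0.8% per 1000 nuclei, 5.5% to 8.98% per library), which does not remove every doublet. The others were clustered with scanpy 1.11.5 and leidenalg 0.10.2 (2000 variable genes without the 9 members, 30 components, 15 neighbours, Leiden resolution 1.0) in Python 3.11.15, and a class needed at least 3 of its markers. UMIs were summed per class and library and divided by the class total. Ratios of 2 libraries carry exact conditional binomial intervals and levels exact Poisson ones at 95%, from scipy 1.17.1. A ratio was formed with at least 20 nuclei in each library and 50 UMIs over both. The ratio calculation was tested on simulated data.

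Every member is described, and a ratio of a member was named where it passed 1.5-fold and its interval left out 0. Of the other lists, the highest and lowest gene per list and comparison could be named, and the classes of 5 list genes were added after their values were seen. Likeness used genes with at least 200 UMIs over all kept nuclei and an average over the libraries of at least 20 CPM in their highest class. For Hapln1, 1 of its 3 genes is not reported here. The members and lists were chosen with earlier results of these data known. TMM factors came from edgeR 4.0.16 in R 4.3.3. Alternatives changed the scaling, the nucleus filters, doublets, clusters, depth (1500 UMIs per nucleus), UMI minimum and fold.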

Additional observations from a re-analysis of the deposited data

Results flagged for a closer look

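For 10 combinations of a member and a class, the ratios of 2 matching contrasts lay in opposite directions, both past 1.5-fold. Both also met the interval rule given above for naming a ratio of a member. Combinations in opposite directions with a smaller ratio on either side were left out. The share of all genes meeting the same rule is not given here, so the count has no background to compare with. Each group is 1 library, so none of these 10 differences was tested. For Bcan, the log2 ratio of knock-in over WT with exercise minus that without exercise was 2.62 in dentate granule neurons, 2.23 in CA3 neurons, 1.85 in CA1 neurons, 1.82 in inhibitory neurons and 1.35 in subicular neurons. In CA2 neurons the log2 ratio of exercise in the knock-in minus that in WT was 2.68 for Bcan. Acan in dentate granule neurons gave 2.47 by that subtraction, from 1.38 in the knock-in and -1.10 in WT. Ncan in cortical neurons gave 1.26 for genotype with exercise minus without. Tnr gave 2.80 in astrocytes for genotype with exercise minus without, and 2.80 in oligodendrocytes for exercise in the knock-in minus that in WT. As given above, the astrocyte ratio with exercise came to within 1.5-fold with no doublets left out. The oligodendrocyte ratio in WT did so with finer clusters and with TMM factors. With TMM factors, Bcan in subicular neurons came to within 1.5-fold for genotype both with and without exercise. Ncan in cortical neurons did so for genotype with exercise. Other moves of these ratios under the alternatives are not listed here. The astrocyte value also rests on few Tnr UMIs in unexercised knock-in. Both subtractions give the same number for a gene and class, since each uses all 4 libraries. Bcan accounts for 6 of the 10 combinations, all in neurons.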

How the results depend on the processing

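No paired analysis was possible because each group has 1 library, the groups share no second replicate number and no value comes from a test. Of member ratios named individually, 684 values under the alternatives stayed on the same side, 49 moved and 9 reversed. The reversed log2 ratios were Tnr in microglia for exercise in the knock-in (-0.23 with at least 1200 UMIs, -0.25 with at least 1000 genes a nucleus) and Ptprz1 in oligodendrocytes for genotype with exercise (-0.73 at Leiden resolution 2.0). After thinning to 1500 UMIs, which left out 305 to 1186 nuclei per library, the reversed ratios were Hapln4 in CA3 neurons (-1.14 for genotype with exercise, 0.59 for exercise in WT) and, for exercise in the knock-in, Vcan (-0.34) and Tnr (-0.041) in CA2 neurons and Ptprz1 in Cajal-Retzius cells (-0.020) and microglia (-0.29).

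Counts of pairs moved as follows, against 0 higher and 18 lower for genotype without exercise, 27 and 5 for genotype with exercise, 32 and 1 for exercise in the knock-in and 3 and 7 for exercise in WT. The share of all measured gene and class pairs past the same limit follows each count in parentheses. Leaving mitochondrial and the 50 highest genes out of the total gave 1 higher for genotype without exercise (15.1%) and 2 lower for exercise in the knock-in (20%). TMM gave 15 higher (15.5%) and 7 lower (12.5%) for genotype with exercise and 2 lower for exercise in the knock-in (20.1%). Without doublet removal, 0 were lower for exercise in the knock-in (16.2%). Leiden resolution 2.0 gave 1 higher for genotype without exercise (11.9%) and 1 higher for exercise in WT (2.80%), and 4000 variable genes gave 8 lower of 71 measured for genotype with exercise (8.29%). Thinning left fewer pairs measured. It gave 11 higher (23.8%) and 3 lower (7.40%) of 34 for genotype with exercise, 14 higher of 35 for exercise in the knock-in (27.5%) and 4 lower of 32 for exercise in WT (10.4%). At least 200 UMIs gave 6 lower of 31 for genotype without exercise (9.91%), 13 higher (21.7%) and 2 lower (4.58%) of 37 for genotype with exercise, 16 higher of 35 for exercise in the knock-in (25.7%), and 1 higher (1.10%) and 3 lower (4.99%) of 34 for exercise in WT. At least 20 UMIs gave 10 lower of 78 for genotype with exercise (11.3%), 2 lower of 72 for exercise in the knock-in (19.4%) and 5 higher of 77 for exercise in WT (6.28%). A fold of 2, with the pairs measured as before, gave 7 lower for genotype without exercise (2.81%), 8 higher (8.48%) and 2 lower (3.26%) for genotype with exercise, 15 higher (11.4%) and 0 lower (8.18%) for exercise in the knock-in, and 1 higher (0.786%) and 2 lower (1.58%) for exercise in WT. The cause of the changes was not tested except where fewer pairs or a larger fold set them by construction.

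Depth limits Acan, Hapln4 and Tnc most, with 557, 898 and 464 UMIs in all. A class of few nuclei, such as microglia of exercised WT, gives wide intervals.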
